A study of Drosophila melanogaster with 18 samples.

Results

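Pepck1, Pepck2 and fbp encode enzymes of gluconeogenic steps that glycolysis does not share, and their RNA levels were followed across all 6 groups of a cell culture experiment. The members were taken by FlyBase symbol, which gave 3 of the 17753 gene identifiers in the deposited count table. RNA of Drosophila melanogaster DL1 cells, a cultured line of embryonic, hemocyte-like origin, was sequenced after ribosomal RNA depletion as strand-specific libraries. The experiment raised the level of IntS6 or IntS12, subunits of Integrator, a complex bound to RNA polymerase II that cleaves nascent transcripts and stops transcription of many genes early. The question was what such overexpression does to the other genes.

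Each of the 6 groups held 3 libraries, lettered A, B and C. The IntS6 line and the IntS12 line were DL1 populations kept under puromycin that carried a FLAG-tagged IntS6 or IntS12 transgene on a plasmid, driven by the copper-inducible MtnA promoter. Parental DL1 cells carried no transgene. All cells grew for 3 d at 25 °C, and in 3 groups, 1 of each kind of cell, copper sulfate was present at 500 µM for the last 24 h, whereas the other 3 groups received none. Copper therefore both induced the transgene and exposed the cells to the metal, and parental cells with copper are the control for the metal alone. The labels do not describe puromycin in the parental culture. The series text calls the replicates biological without saying whether each was grown on its own. The p-values thus describe variation among these libraries and nothing wider.

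Gluconeogenesis makes glucose from smaller carbon compounds and runs glycolysis largely in reverse, with separate enzymes at the steps that glycolysis cannot reverse. Phosphoenolpyruvate carboxykinase, encoded in the fly by the neighbouring genes Pepck1 and Pepck2, turns oxaloacetate into phosphoenolpyruvate, which can also feed the synthesis of glycerol 3-phosphate. Fructose-1,6-bisphosphatase, the product of fbp, removes a phosphate from fructose 1,6-bisphosphate and so undoes the step of phosphofructokinase. In the animal the fat body is the main site of such metabolism, and trehalose, made from glucose phosphates, is the main sugar of the blood.

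Library totals ran from 13217764 to 18214756 counts. With rRNA genes set aside a library held 3.69 to 4.94 M, so the members were read at low depth. Levels are given as CPM, counts scaled to the size of the whole library with rRNA included, and 1 count was worth 0.0558 to 0.075 CPM. The transgenes followed their labels. IntS6 averaged 2370 ± 174 CPM in copper-treated cells of its own line and 36.3 ± 1.46 CPM in copper-treated parental cells (SD, n = 3 each). IntS12 averaged 92.9 ± 3.92 CPM in copper-treated cells of its own line and 3.62 ± 0.317 CPM in copper-treated parental cells. Both were also above parental cells without copper, with IntS6 at 71.4 ± 3.6 CPM in its line and 28 ± 1.51 CPM in parental cells, and IntS12 at 8.44 ± 1.29 CPM in its line and 4.98 ± 0.512 CPM in parental cells. Both sums include the endogenous genes. Of the hemocyte markers Hml, He, srp, Ppn, Pxn and NimC1, all 6 had counts in every group. The fat body markers Lsp1alpha, Lsp2, Fbp2 and Yp1 had 0 counts in all 18 libraries, Lsp1beta had 1 count in the IntS6 line, and Fbp1 had 1 count each in parental cells with copper, the IntS6 line and parental cells.

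In the BDGP6.54 annotation Pepck1 (FBgn0003067) lies on chromosome arm 2R from 18536767 to 18539416 on the plus strand and has 1 transcript of 2486 exon bases in 2 exons. Pepck2 (FBgn0034356) lies directly before it on the same strand, 2R from 18527430 to 18535749, with 2 transcripts and 3516 exon bases, and ends 1017 bases before Pepck1 begins. The fbp gene (FBgn0032820) is on arm 2L from 19761587 to 19764136 on the minus strand, with 4 transcripts and 1202 exon bases, none of which is shared with another annotated gene. All 3 genes are protein coding.

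Pepck1 shares its whole transcript with a second annotated gene. CG45087 (FBgn0266488), annotated on the same strand, covers all exon bases of Pepck1, and its reading frame of 84 bases, 27 codons and a stop, lies inside the Pepck1 5′ UTR and ends 161 bases before the Pepck1 start codon. The deposited values of CG45087 and Pepck1 were equal in 18 of 18 libraries, 7 libraries held values that were not whole, and the sum of the pair was a whole number in 18 of 18. The pair together held 275 reads over all libraries. Each value printed for Pepck1 therefore stands for an equal share of reads that the counting divided between these annotations, and the sum of the pair is given as well where it changes the picture.

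**Figure D1:**
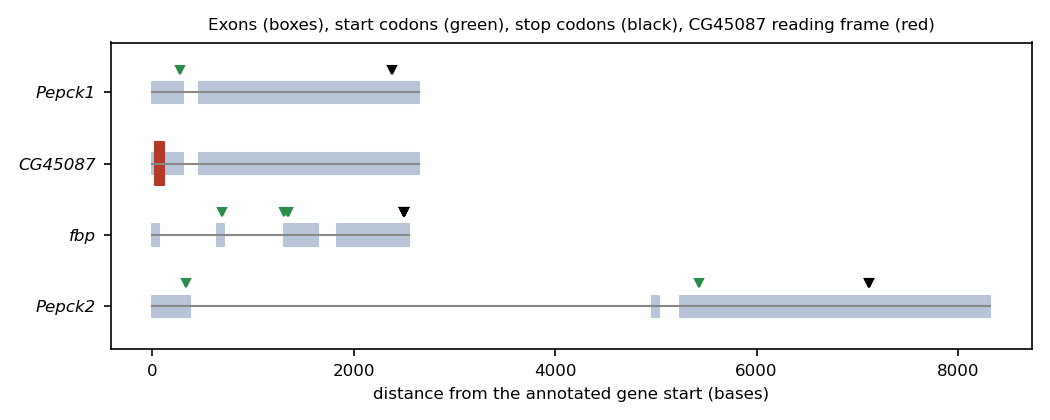
Gene models of Pepck1, CG45087, fbp and Pepck2, drawn from the annotated gene start to its end in bases, with merged exons as boxes, start codons as green and stop codons as black triangles, and the reading frame of CG45087 in red. The exons of CG45087 are those of Pepck1, and its 84-base frame ends 161 bases before the Pepck1 start codon.

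The highest level of both Pepck1 and fbp was in the IntS6 line with copper. Pepck1 had counts of 27, 26.5 and 27.5 in libraries A, B and C of that group, which is 1.54, 1.89 and 1.93 CPM. In the IntS12 line with copper it had counts of 8, 4 and 6, or 0.49, 0.271 and 0.406 CPM. Parental cells with copper had counts of 5, 9.5 and 5, or 0.355, 0.53 and 0.375 CPM. The IntS6 line with copper thus stood apart from the other copper groups, which overlapped each other. How many of all genes were set apart in this way was not counted.

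Without copper Pepck1 was close to the limit of detection. The IntS6 line without copper had counts of 1.5, 3 and 4, or 0.108, 0.2 and 0.272 CPM. The IntS12 line without copper had counts of 1.5, 2 and 1, or 0.0846, 0.133 and 0.0707 CPM. Parental cells without copper had counts of 2.5, 2.5 and 1, or 0.164, 0.158 and 0.0726 CPM. These 3 groups overlapped, and all their values but one lay below every library with copper: IntS6 line library C, at 0.272 CPM, was level with IntS12 line library B with copper.

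For fbp, too, the IntS6 line with copper stood above every other group. The IntS6 line with copper had counts of 89, 63 and 67, or 5.08, 4.49 and 4.69 CPM. Counts were 19, 29 and 21 in the IntS12 line with copper, or 1.16, 1.96 and 1.42 CPM, and 19, 34 and 23 in parental cells with copper, or 1.35, 1.9 and 1.72 CPM. The lowest library of the IntS6 line with copper was above the highest of every other group. The share of all genes for which this held was not counted.

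Without copper, fbp had counts of 12, 5 and 4 in the IntS6 line, or 0.867, 0.333 and 0.272 CPM. The IntS12 line without copper had counts of 9, 8 and 11, or 0.508, 0.533 and 0.778 CPM. Parental cells without copper had counts of 17, 5 and 11, or 1.12, 0.315 and 0.798 CPM. Single libraries spread these groups: library A was high and library B low among the parental cells, and library A was high in the IntS6 line.

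In order of mean level, fbp averaged 4.75 ± 0.3 CPM in the IntS6 line with copper, 1.66 ± 0.28 CPM in parental cells with copper, 1.52 ± 0.408 CPM in the IntS12 line with copper, 0.744 ± 0.403 CPM in parental cells, 0.606 ± 0.149 CPM in the IntS12 line and 0.491 ± 0.328 CPM in the IntS6 line (SD, n = 3 each). Pepck1 averaged 1.78 ± 0.212 CPM in the IntS6 line with copper, 0.42 ± 0.096 CPM in parental cells with copper, 0.389 ± 0.111 CPM in the IntS12 line with copper, 0.193 ± 0.0819 CPM in the IntS6 line, 0.132 ± 0.0511 CPM in parental cells and 0.0962 ± 0.0329 CPM in the IntS12 line (SD, n = 3 each). Among neighbours in these orders, parental cells and the IntS12 line with copper did not differ beyond their spread, nor did the 3 groups without copper.

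**Figure D2:**
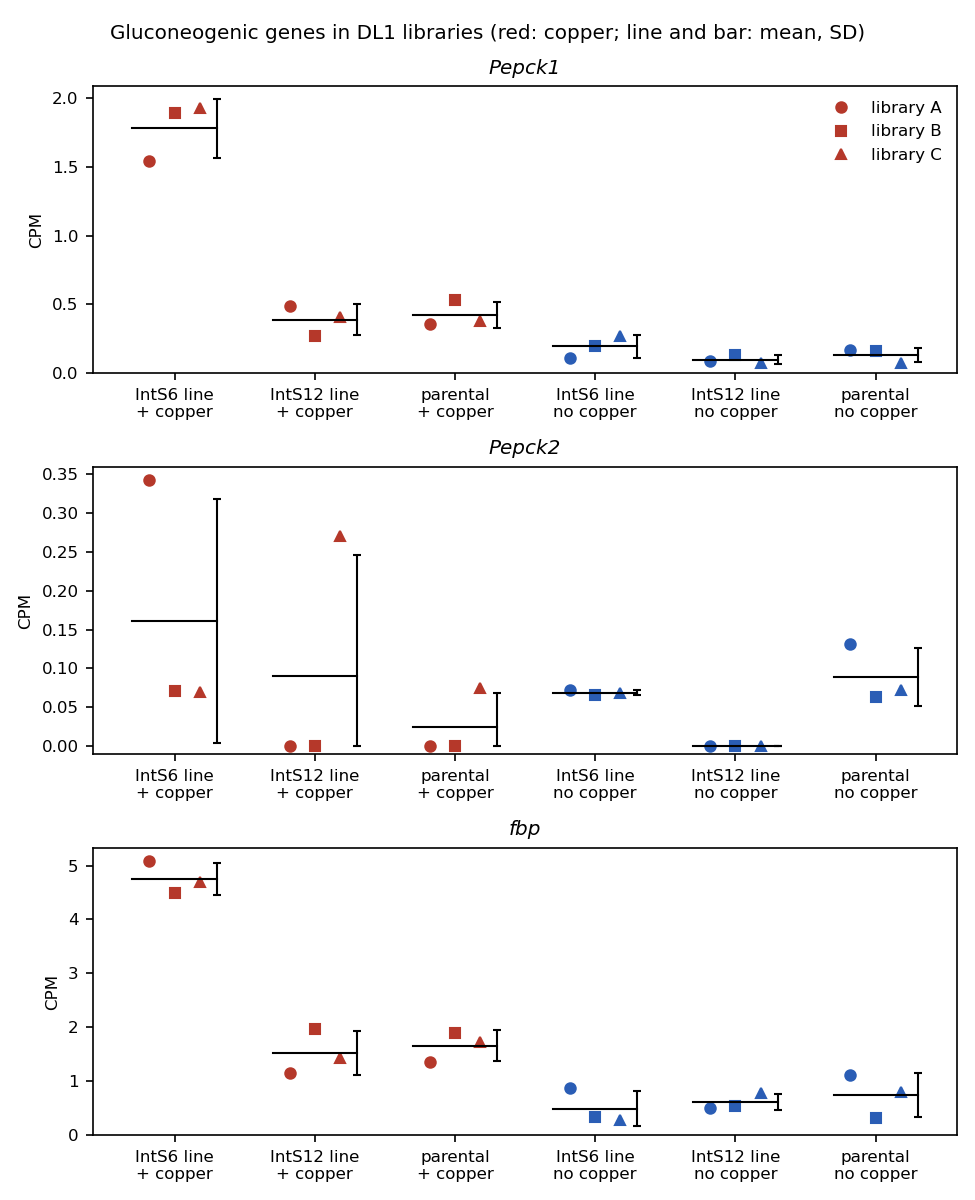
CPM of Pepck1, Pepck2 and fbp in each library (points; red with copper, blue without), with the mean of the 3 libraries of a group as a line and the SD as a bar, cut at 0. The IntS6 line with copper sits at 1.54 to 1.93 CPM for Pepck1 and 4.49 to 5.08 CPM for fbp, above all other libraries, while Pepck2 reaches 0.342 CPM at most, and the axes differ between panels.

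Pepck2 was barely detected. Over all 18 libraries it had 20 counts, spread over 11 libraries, with a maximum of 6. The IntS6 line with copper had 6, 1 and 1 counts in libraries A, B and C, the IntS12 line with copper 0, 0 and 4, and parental cells with copper 0, 0 and 1. Single libraries held most of the counts of the copper-treated lines.

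Without copper, Pepck2 had 1 count in each library of the IntS6 line, 2, 1 and 1 counts in parental cells and none in the IntS12 line, where 0 counts allow a mean level of up to 0.064 CPM (a limit of 3 counts over the group, for counting error only). The summed counts of 8 in the IntS6 line with copper and 1 in parental cells with copper give a ratio of 7.91, with an exact 95% interval of 1.06 to 351 that covers counting error only. In edgeR with no filter, over 13350 genes, the log2 fold change was 2.53 with a 95% interval of -0.2 to 5.27 (adjusted p = 0.373). A two-sided exact permutation test gave p = 0.3, but with 3 against 3 it cannot go below 0.1 and so could not have passed 0.05. The summed counts were 4 in the IntS12 line with copper and 1 in parental cells with copper (exact permutation p = 1), and 0 in the IntS12 line and 4 in parental cells without copper, where the libraries did not overlap (exact permutation p = 0.1, the smallest possible). A difference in Pepck2 was not detectable at this depth.

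The filter on low counts asked for about 0.669 CPM in at least 3 libraries. Pepck2 had 0 such libraries and was not tested among the 8174 genes kept. Pepck1 had 3, all of them in the IntS6 line with copper, so it entered the tests through the group where it was high and had to be higher there. Its differences from that group in the filtered fit are therefore given as sizes with no test, and no count over the members that were kept is read as support. The sum of Pepck1 and CG45087 met the same limit in 8 libraries, 3 in the IntS6 line with copper, 2 in the IntS12 line with copper and 3 in parental cells with copper. Parental cells with copper alone would have kept it, so the sum carries the tests of this transcript against the IntS6 line with copper. fbp had 13 such libraries, with at least 1 in every group.

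Per kilobase of exon, the scale on which genes can be compared, fbp was the most abundant member in every group. Its level was 3.95 ± 0.25 CPM per kb in the IntS6 line with copper, 1.26 ± 0.34 CPM per kb in the IntS12 line with copper and 1.38 ± 0.233 CPM per kb in parental cells with copper (SD, n = 3 each). The pair of Pepck1 and CG45087 reached 1.44 ± 0.171, 0.313 ± 0.089 and 0.338 ± 0.0772 CPM per kb in the same 3 groups. Pepck2 reached 0.0458 ± 0.0446 CPM per kb in the IntS6 line with copper, its highest group.

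The ratio of fbp to the Pepck1 pair, on that per-length scale, was 3.41, 2.46 and 2.52 in libraries A, B and C of the IntS6 line with copper. It was 2.46, 7.5 and 3.62 in the IntS12 line with copper and 3.93, 3.7 and 4.76 in parental cells with copper. Without copper it ran between 1.03 and 11.4, on as few as 2 reads of the pair in a library. The IntS6 line with copper lay below all parental libraries with copper in this ratio, and within the range of the IntS12 line with copper, where 2.46 was also the lowest value, and the difference was not tested.

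With copper in both groups, Pepck1 was 3.98-fold and fbp 2.84-fold higher in the IntS6 line than in parental cells. The log2 fold change of Pepck1 was 1.99 ± 0.31 (SE), and that of fbp was 1.51 ± 0.27 (SE, edgeR quasi-likelihood test, Benjamini-Hochberg adjusted p = 0.000631), with no overlap of the 3 and 3 libraries of fbp. The share of all genes with no such overlap was not counted, here or in the other comparisons. Of all 8174 genes tested, 7.45% were called higher in this comparison, and 88 genes had a log2 fold change at least as large as that of Pepck1 and 148 as that of fbp. Summed with CG45087, the Pepck1 transcript was 4.12-fold higher, a log2 fold change of 2.04 ± 0.26 (edgeR adjusted p = 1.63e-05, in a fit that called 7.44% of genes higher). Libraries came from whole cultures, so a change in the share of cells that express a gene and a change in RNA per cell cannot be told apart.

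The IntS12 transgene, under the same copper, went with no called difference in either gene. The log2 fold change of Pepck1 between the IntS12 line and parental cells, both with copper, was -0.16 with a 95% interval of -1.08 to 0.75, and that of fbp was -0.15 with an interval of -0.8 to 0.51 (edgeR adjusted p = 1 for both). Both intervals lie below the log2 fold changes found in the IntS6 line. The lines with copper also differed in transgene RNA, with 92.9 ± 3.92 CPM of IntS12 and 2370 ± 174 CPM of IntS6 in their own lines. What part that difference in level has was not tested. In this comparison 0.0245% of genes were called in either direction.

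Set against the IntS12 line with copper, the IntS6 line with copper had 4.46-fold more Pepck1 RNA, a log2 fold change of 2.16 ± 0.31. The sum with CG45087 was 4.5-fold higher, a log2 fold change of 2.17 ± 0.27 (edgeR adjusted p = 1.39e-05, with 5.05% of genes called higher in that fit). fbp was 3.15-fold higher, a log2 fold change of 1.65 ± 0.27 (edgeR adjusted p = 0.000445). The lowest fbp library of the IntS6 line was above the highest of the IntS12 line, and 5.06% of genes were called higher. This comparison and that with parental cells share the libraries of the IntS6 line with copper.

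In parental cells, which carried no transgene, Pepck1 and fbp RNA was higher with copper. In parental cells with copper against parental cells without, the log2 fold change of Pepck1 was 1.9 ± 0.54, or 3.74-fold (edgeR adjusted p = 0.00839), and 1.65 ± 0.41, or 3.14-fold, for the pair (edgeR adjusted p = 0.00323). Counts of Pepck1 that were not whole had been rounded for the value of 1.9. Unrounded, the log2 fold change of Pepck1 was 1.62 (edgeR adjusted p = 0.0212). For fbp it was 1.17 ± 0.36, or 2.25-fold (edgeR adjusted p = 0.0132). The libraries did not overlap for either gene, though the share of all genes for which this held was not counted. In this comparison 19.3% of all genes were called higher with copper.

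These calls in parental cells depend on single libraries. Without parental library B with copper, the log2 fold change of Pepck1 was 1.64 (edgeR adjusted p = 0.0726) and that of fbp 1.05 (edgeR adjusted p = 0.0599), and without parental library B that received no copper that of fbp was 0.79 (edgeR adjusted p = 0.0898), so neither was called. DESeq2 gave Pepck1 a log2 fold change of 1.97 and an adjusted p of 0.0556. Over all alternatives tried, the adjusted p of this comparison ran from 0.00323 to 0.0726 for Pepck1 and from 0.00284 to 0.0898 for fbp.

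In the IntS6 line the difference with copper was 8.31-fold for Pepck1, a log2 fold change of 3.05 ± 0.36, and 8.95-fold for the pair, a log2 fold change of 3.16 ± 0.31 (edgeR adjusted p = 3.68e-08). fbp was 9.71-fold higher with copper, a log2 fold change of 3.28 ± 0.34 (edgeR adjusted p = 8.21e-08). Library A without copper, the highest of its group, weighs on the size of the fbp value: without it the log2 fold change of fbp was 3.94 (edgeR adjusted p = 1.62e-07, within a range of 7.41e-24 to 3.51e-06 over all alternatives). Of all genes, 23.2% were called higher with copper in the IntS6 line, in the fit with the pair summed too.

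In the IntS12 line Pepck1 was 3.48-fold higher with copper, a log2 fold change of 1.8 ± 0.57 (edgeR adjusted p = 0.016), and the pair 3.95-fold higher (edgeR adjusted p = 0.00132). fbp was 2.5-fold higher, a log2 fold change of 1.32 ± 0.38 (edgeR adjusted p = 0.00834), and 19.2% of genes were called higher. The call of Pepck1 was lost with DESeq2 (adjusted p = 0.0767), with no filter on low counts (edgeR adjusted p = 0.0628), without IntS12 library A with copper (edgeR adjusted p = 0.0761) and without IntS12 library C that received no copper (edgeR adjusted p = 0.0583), over a full range of 0.00132 to 0.0767. The call of fbp was lost without IntS12 library B with copper (edgeR adjusted p = 0.0513, over a range of 0.00133 to 0.0513).

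Without copper neither line was called different from parental cells for Pepck1 or fbp, although each transgene was already above the parental level there. The log2 fold change of Pepck1 was 0.84 (95% interval -0.67 to 2.35) in the IntS6 line and -0.06 (-1.79 to 1.68) in the IntS12 line, each against parental cells without copper. Counts that were not whole had been rounded for these values, and the pair summed, which needs no rounding, gave 0.53 (-0.54 to 1.6) in the IntS6 line and -0.46 (-1.7 to 0.78) in the IntS12 line. For fbp it was -0.6 (-1.55 to 0.35) in the IntS6 line and -0.3 (-1.19 to 0.6) in the IntS12 line (edgeR adjusted p = 1 for all 6 values). Without IntS6 library A the fbp value of the IntS6 line was -1.26 and without parental library A it was -0.16, and no alternative called it (adjusted p 0.993 to 1). The intervals are wide and do not exclude a change of 2-fold in either line. Of all genes, 0.208% were called in the IntS6 line and 0.0367% in the IntS12 line.

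Whether copper did more in the IntS6 line than in parental cells was tested as a difference of the copper responses. For fbp the log2 difference was 2.11 ± 0.53, with a 95% interval of 1 to 3.22, and it narrowly missed the threshold (edgeR adjusted p = 0.0541), in a test that called 1.13% of genes higher. DESeq2 called it (log2 difference 2.13, adjusted p = 0.0347), as did edgeR with no filter on low counts (adjusted p = 0.00338), without IntS6 library A that received no copper (adjusted p = 0.016) and without parental library B that received no copper (adjusted p = 0.0163). Of 21 alternatives, the other 17 left the fbp difference uncalled, as in the main fit. Without parental library A that received no copper the edgeR adjusted p was 0.301, the highest of the range.

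For Pepck1 the difference of responses was 1.15 (95% interval -0.75 to 3.05), and for the pair it was 1.51 (0.29 to 2.74, edgeR adjusted p = 0.307). With counts not rounded the difference for Pepck1 alone, as a size, was 1.51 too. A larger copper response of Pepck1 in the IntS6 line was not detectable with the few counts of the groups without copper. For the IntS12 line the log2 difference of responses was -0.1 (-2.14 to 1.94) for Pepck1 and 0.15 (-0.95 to 1.25) for fbp (edgeR adjusted p = 0.999 for both), and 0.0122% of genes were called.

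**Figure D3:**
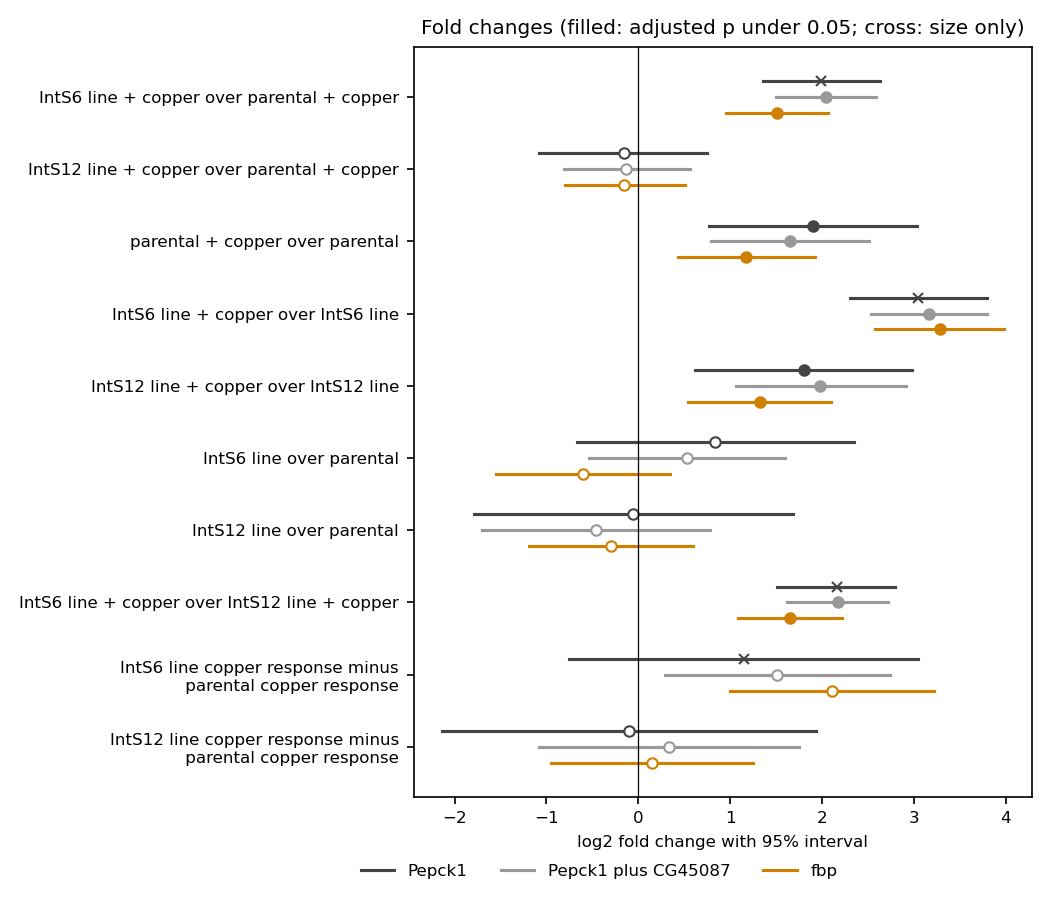
Log2 fold changes with 95% intervals of Pepck1, of Pepck1 summed with CG45087 and of fbp in the 10 comparisons, filled where the adjusted p was under 0.05 and drawn as crosses, sizes with no test, where Pepck1 alone is set against the IntS6 line with copper. The 5 comparisons with filled points are the IntS6 line with copper against the other copper groups and copper against no copper in each kind of cell. The fbp point of the IntS6 response difference is open at 2.11.

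RNA of MtnA and of the hemocyte markers Hml and Ppn was also higher in the IntS6 line with copper than in parental cells with copper. All copper groups had the metal at 500 µM for 24 h. MtnA, a metallothionein gene that responds to copper and whose promoter drives the transgenes, was at 495 to 612 CPM in the IntS6 line with copper, 317 to 448 CPM in the IntS12 line with copper and 260 to 413 CPM in parental cells with copper, and averaged 3.02 ± 0.322 CPM in the IntS6 line and 2.85 ± 0.319 CPM in parental cells without it. Its log2 fold change between the IntS6 line and parental cells, both with copper, was 0.78 ± 0.13 (edgeR adjusted p = 0.000256). Of the 6 hemocyte markers tested, 2 were called higher in that comparison, which called 7.45% of all genes higher. Hml, a clotting protein gene, was 11.7-fold (edgeR adjusted p = 1.12e-07) and Ppn, a matrix protein gene, 1.47-fold higher (edgeR adjusted p = 0.00805). He, srp, Pxn and NimC1 were not called, and the median log2 fold change of the 6 was 0.38. Against the IntS12 line with copper, 1 of the 6 was called higher, beside 5.06% of all genes. Hml was at 24.4 to 48 CPM in the IntS6 line with copper, 2.71 to 4.47 CPM in the IntS12 line with copper and 1.65 to 3.7 CPM in parental cells with copper. With copper, Ppn averaged 251 ± 36 CPM in the IntS6 line, 189 ± 23.4 CPM in the IntS12 line and 171 ± 23.8 CPM in parental cells. Its means were higher without copper, at 318 ± 23.6, 310 ± 40.2 and 303 ± 58.6 CPM in the same order. Summed over the 6 markers, a library held 402 to 522 CPM in the IntS6 line with copper, 312 to 360 CPM in the IntS12 line with copper and 295 to 346 CPM in parental cells with copper. Without copper the sum was 448 to 500 CPM in the IntS6 line, 419 to 507 CPM in the IntS12 line and 389 to 495 CPM in parental cells, so the ranges of the 3 groups overlapped there. The fat body marker sum was 0 in each library of the IntS6 line with copper, 0 to 0.0711 CPM in parental cells with copper and at most 0.133 CPM in any library. What part MtnA or Hml levels have in the values of Pepck1 and fbp was not tested.

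The nearest annotated neighbours of the members were at or near 0 counts, or were not called different between the IntS6 line and parental cells with copper. Downstream of Pepck1 on the same strand, Rgk2 starts 168 bases beyond its end and had 0 counts in all 18 libraries. CG43066, 990 bases before Pepck2, had 1 count in all. GstE11, a glutathione S-transferase gene 22404 bases before Pepck2, averaged 14.7 CPM in the IntS6 line with copper and 11.4 CPM in parental cells with copper, a log2 fold change of 0.34 ± 0.21 (edgeR adjusted p = 0.37), and rose with copper in parental cells by a log2 fold change of 2.8 ± 0.29 (edgeR adjusted p = 1.13e-07). Next to fbp, Dus3, on the other strand and 600 bases away, averaged 6 CPM in the IntS6 line with copper and 7.32 CPM in parental cells with copper, a log2 fold change of -0.29 ± 0.2 (edgeR adjusted p = 0.449), and CG10628 averaged 7.54 and 7.5 CPM in the same groups, a log2 fold change of -0.01 ± 0.12 (edgeR adjusted p = 0.977). With copper against no copper in parental cells, Dus3 had a log2 fold change of 0.66 ± 0.21 and rose (edgeR adjusted p = 0.0156). These neighbours were looked up after the values of the members had been seen.

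Of the rest of the gluconeogenic route, PCB and Pgi rose and Mdh2 fell. Of 6 tested genes for its other enzymes and its oxaloacetate supply, 2 rose in the IntS6 line with copper against parental cells with copper, 1 fell, and the median log2 fold change was -0.05, beside -0.01 over all genes, of which 7.45% were called higher and 1.46% lower. PCB, pyruvate carboxylase, which makes the oxaloacetate that PEPCK uses, was at 65 ± 1.1 CPM in the IntS6 line with copper and 36 ± 5.22 CPM in parental cells with copper (SD, n = 3 each), a 1.81-fold rise (edgeR adjusted p = 0.00069). Pgi, glucose-6-phosphate isomerase, rose 1.26-fold (edgeR adjusted p = 0.0347). Mdh2, the mitochondrial malate dehydrogenase, fell by 0.3 on the log2 scale (edgeR adjusted p = 0.00965), though with library sizes alone in place of TMM it was at -0.25 and not called. Got2, an aspartate aminotransferase, had a log2 fold change of -0.13 (edgeR adjusted p = 0.306).

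Genes at the ends of the route were at the limit of detection. G6P, glucose-6-phosphatase, had 5 to 9 counts in each group. Tps1, which makes trehalose 6-phosphate, had 4 counts in the IntS6 line with copper, 2 in the IntS12 line with copper, 1 in parental cells with copper and 0 in the groups without copper. Neither was kept by the filter on low counts.

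Pgi, listed above, serves both glycolysis and gluconeogenesis. None of the 7 other tested shared enzymes was called by edgeR or by DESeq2 in the IntS6 line with copper against parental cells with copper. Their median log2 fold change was 0.06. At an unadjusted p under 0.05 the count was 1, Tpi, triose phosphate isomerase, with a log2 fold change of 0.25 (edgeR adjusted p = 0.21). Of 5 tested enzymes that serve glycolysis alone or set fructose 2,6-bisphosphate, an inhibitor of fructose-1,6-bisphosphatase, 2 rose, beside 7.45% of all genes, and the median was 0.39: Hex-A, a hexokinase, 1.31-fold (edgeR adjusted p = 0.00338), and Pfrx, which makes and degrades fructose 2,6-bisphosphate, 1.22-fold (edgeR adjusted p = 0.00592). Pfk, phosphofructokinase, which opposes fbp, had a log2 fold change of 0.39 (edgeR adjusted p = 0.115).

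Of 8 tested genes of glycerol 3-phosphate and triglyceride synthesis none was called by edgeR or by DESeq2 in that comparison, with a median of 0.02 and 1 at an unadjusted p under 0.05, Gpdh3, a glycerol-3-phosphate dehydrogenase, with a log2 fold change of -0.34 (edgeR adjusted p = 0.129). Among 6 tested trehalose and glycogen enzymes 2 rose, beside 7.45% of all genes, with a median of 0.3. They were Treh, which splits trehalose, 1.49-fold (edgeR adjusted p = 0.000266), and AGBE, the glycogen branching enzyme, 1.3-fold (edgeR adjusted p = 0.0203).

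Of 23 tested regulators of fasting, insulin and sugar responses, 3 rose, 20 were not called, and the median was 0.16, in a comparison with 7.45% of all genes called higher. They were REPTOR, a transcription factor held back by TORC1, 1.51-fold (edgeR adjusted p = 7.28e-05), InR, the insulin receptor, 1.24-fold (edgeR adjusted p = 0.000441), and Mondo, a sugar-sensing transcription factor, 1.19-fold (edgeR adjusted p = 0.0391). In a list of 8 genes that earlier work named as held down by Integrator, which includes Pepck1 itself and 3 metallothionein genes, 5 of the 7 others than Pepck1 were called higher, with a median of 0.66. Those earlier descriptions came in part from this cell line, so the list is not independent evidence of a direction.

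The same lists were read for copper in parental cells. The background was 19.3% of genes called higher and 19.4% called lower, and a median of 0 over all genes. Of the shared enzymes of glycolysis and gluconeogenesis other than Pgi, 7 of 7 rose, with a median log2 fold change of 0.4. Pgi averaged 88.4 ± 12.4 CPM with copper and 80.2 ± 5.31 CPM without and was not called. Gapdh2, glyceraldehyde-3-phosphate dehydrogenase, rose 1.6-fold (edgeR adjusted p = 1.84e-05) and Pglym78, a phosphoglycerate mutase, 1.51-fold (edgeR adjusted p = 0.000174). Of the other gluconeogenic and oxaloacetate-supply enzymes 4 of 6 rose and 1 fell, with a median of 0.3, led by PCB at 1.92-fold (edgeR adjusted p = 0.000121), with Mdh2 lower by a log2 fold change of -0.21 (edgeR adjusted p = 0.0275), which with library sizes alone was -0.2 and not called.

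Among the 5 glycolysis-only and fructose 2,6-bisphosphate enzymes 3 rose with copper in parental cells, 1 fell, and the median was 0.5, beside 19.3% of all genes called higher and 19.4% lower. Ldh, lactate dehydrogenase, rose 3.94-fold (edgeR adjusted p = 1.95e-05) and Pfk 2.01-fold (edgeR adjusted p = 2.45e-05), whereas Pfrx fell by 0.18 on the log2 scale (edgeR adjusted p = 0.034), a call that DESeq2, at -0.18, and library sizes alone, at -0.17, did not make. So RNA of enzymes for both directions of the fructose 1,6-bisphosphate step was higher with copper: Pfk in parental cells averaged 113 ± 33 CPM with copper and 56.4 ± 4.07 CPM without (SD, n = 3 each), and fbp averaged 1.66 ± 0.28 CPM with copper and 0.744 ± 0.403 CPM without.

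Of the glycerol 3-phosphate and triglyceride genes 4 of 8 rose with copper, or 2 by DESeq2, 1 fell, and the median was 0.35, with Gpat4, a glycerol-3-phosphate acyltransferase, 1.47-fold higher (edgeR adjusted p = 0.000121) and Lpin, a phosphatidate phosphatase, lower by a log2 fold change of -0.39 (edgeR adjusted p = 0.0401). Of the trehalose and glycogen enzymes 4 of 6 rose, with a median of 0.24, among them Tret1-1, a trehalose transporter, 2.87-fold (edgeR adjusted p = 2.93e-05) and Treh 2.06-fold (edgeR adjusted p = 6.63e-08). Of the 23 regulators 7 rose and 2 fell, with a median of 0.04, beside 19.3% of all genes called higher and 19.4% lower: daw, an activin-like ligand, rose 2.16-fold (edgeR adjusted p = 6e-06), while InR and foxo, the transcription factor that insulin signalling restrains, had log2 fold changes of -0.48 (edgeR adjusted p = 2.75e-07) and -0.49 (edgeR adjusted p = 0.000651). In the list of genes held down by Integrator, 4 of the 7 others than Pepck1, 3 of the 7 being metallothionein genes, rose with copper, with a median of 1.14. Of the hemocyte markers 3 of 6 rose, or 1 by DESeq2, and 2 fell, with a median of 0.32.

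**Figure D4:**
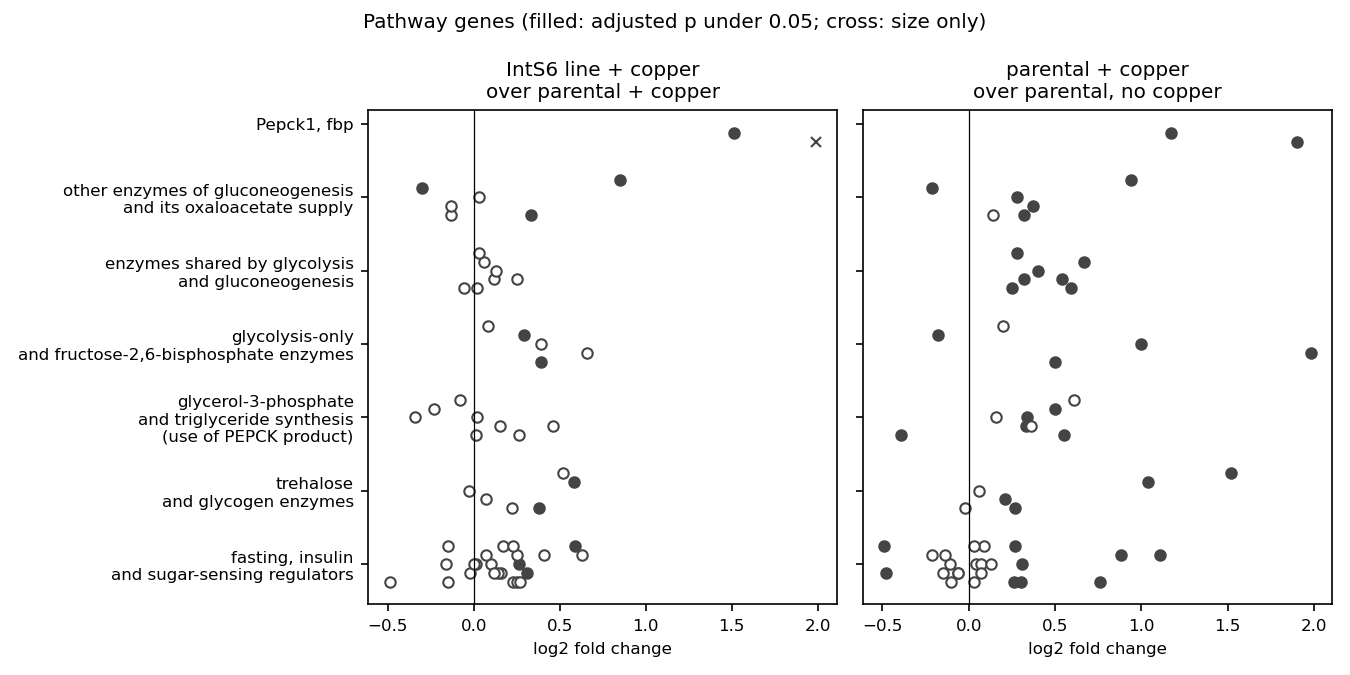
Log2 fold changes of the tested genes of each pathway list in the IntS6 line with copper over parental cells with copper (left) and in parental cells with copper over parental cells without (right), filled where the adjusted p was under 0.05, with Pepck1 on the left a cross, a size with no test; vertical offsets within a list only separate points. On the left, fbp at 1.51 lies to the right of every tested pathway gene other than Pepck1, with PCB at 0.85 the nearest. Pepck1, at 1.99 there, was kept by the filter only through the IntS6 line with copper, so its place is not ranked. On the right Ldh lies at 1.98 beside Pepck1 at 1.9.

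PCB, like fbp, was highest in the IntS6 line with copper and lower in every group without copper. It averaged 65 ± 1.1 CPM in the IntS6 line with copper, 41.1 ± 3.1 CPM in the IntS12 line with copper, 36 ± 5.22 CPM in parental cells with copper, 23.3 ± 4.86 CPM in the IntS6 line, 17.9 ± 5.34 CPM in the IntS12 line and 18.7 ± 4.06 CPM in parental cells (SD, n = 3 each). With copper it was 2.8-fold higher in the IntS6 line (edgeR adjusted p = 1.49e-07) and 2.28-fold higher in the IntS12 line (edgeR adjusted p = 7.62e-06). The difference of the IntS6 and parental copper responses was 0.54 ± 0.23 and was not called (edgeR adjusted p = 0.371).

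Across the 18 libraries the log2 CPM of Pepck1 and fbp had a Pearson r of 0.84, which was 0.55 over the 15 libraries left when the IntS6 line with copper was set aside. Pepck2 had an r of 0.35 with Pepck1 and 0.32 with fbp, and 0 and -0.03 over those 15 libraries. The points share libraries, depth and the copper treatment, so these values are descriptions, and those of Pepck2, with 20 counts, are no finding.

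The genes whose log2 CPM was most like that of Pepck1 over the 18 libraries, by Pearson r among 8172 others, were CG2247 (0.96), sano (0.95), SKIP (0.95) and Tig (0.95). SKIP averaged 4.15 ± 0.44 CPM in the IntS6 line with copper, 0.868 ± 0.167 CPM in the IntS12 line with copper and 0.432 ± 0.19 CPM in parental cells with copper, and Tig, a matrix protein gene, 10.9 ± 2.77, 2.28 ± 0.284 and 2.02 ± 0.981 CPM in the same groups (SD, n = 3 each). For fbp they were CG12112 (0.96), CG6287 (0.95), IRSp53 (0.95) and CG9281 (0.95), of which IRSp53 averaged 8.12 ± 0.922 CPM in the IntS6 line with copper, 2.64 ± 0.136 CPM in the IntS12 line with copper and 2.38 ± 0.225 CPM in parental cells with copper. These genes were chosen for likeness over the same libraries, so a rise in the IntS6 line with copper follows from the choice. Genes alike in pattern still differed in the size of their change. In the IntS6 line with copper over parental cells with copper, CG2247 was 1.88-fold, sano 4.32-fold, SKIP 9.29-fold and Tig 5.28-fold higher. In the same comparison CG12112 was 1.33-fold, CG6287 3.17-fold and IRSp53 3.43-fold higher, and CG9281, at 1.14-fold, was not called (edgeR adjusted p = 0.0634). For Pepck2 the highest values were 0.65 for flw, 0.64 for Mrgn1, 0.63 for step and 0.62 for rols, weak likenesses in sparse counts.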

How the data were processed

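The deposited table holds the authors' estimated counts per gene and library, of which 13.4% were not whole. Per the submitters' processing notes, Trimmomatic 0.39, featureCounts and the builds dm6 and BDGP6 were used. The aligner, annotation release, strand setting and treatment of overlapping genes were not given in the sources used here. Coordinates and overlaps came from the BDGP6.54 annotation. No spike-in was described, so levels are relative to each library. The members and gene lists were chosen with earlier results of these data known.

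After rounding, the counts entered edgeR 4.0.16 under R 4.3.3: 18 libraries, 6 group means, TMM factors, the default filter (minimum count 10), the quasi-likelihood F-test and Benjamini-Hochberg adjustment over 8174 genes, called under 0.05. The fit was checked on simulated counts of genes that had already passed the filter, with a spread shared by all genes. That check does not bear on the filter or on genes whose spread differs. Standard errors and intervals match the p-values; where spread fell below counting error, edgeR took p from counting error. CPM used the unrounded counts and TMM-scaled library sizes, rRNA included. Alternatives were DESeq2 1.42.0, other scaling, no filter, fewer groups, a replicate block, each library left out, and the pair summed; unrounded counts were added after seeing the data. Same-letter libraries deviated together, with every r over 0.1 across genes, for the IntS6 line with copper and parental cells with copper (0.21, 0.24 and 0.14). The same held for parental cells with and without copper (0.12, 0.11 and 0.28). The labels say nothing of pairing. The main fit had no replicate block, so its p-values are unpaired in these comparisons too. Values with the block are given below as an alternative.

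Beside the members, the text names IntS6 and IntS12, up to 4 genes per list with the smallest p, and the 4 genes most like each member; PCB, Pfk, G6P, Tps1, MtnA and the neighbouring genes are also shown for their role or place. No 2 libraries of a group agreed within counting noise. List symbols that matched no identifier were left out.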

Additional observations from a re-analysis of the deposited data

How the results depend on the processing

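In the IntS6 line with copper fbp kept its sign and call in 15 of 15 alternatives against copper-treated parental cells (log2 1.38 to 1.62), 15 of 15 against the copper-treated IntS12 line (1.49 to 1.88) and 15 of 15 against the IntS6 line without copper (2.99 to 3.94). Each 15 were 8 settings, 1 added later and 6 fits that left out a library of the groups compared. Pepck1 alone, as a size, was 1.88 to 2.25, 1.96 to 2.36 and 2.87 to 3.29 there. With no filter, which does not depend on where it was high, it was called at 1.98, 2.15 and 3.03 (edgeR adjusted p = 0.000368, 0.000138 and 5.9e-08). The share of all genes that the fit with no filter called higher in these comparisons is not given, so these calls lack their background. The main fit called 7.45%, 5.06% and 23.2% of genes higher there. With no filter more genes than in the main fit were called in several other counts, listed below. With DESeq2 the copper response of Pepck1 was 1.97 in parental cells and 1.87 in the IntS12 line, neither called, and the fbp response difference of the IntS6 line was 2.13, called. With no filter the last was 2.08, called, and Pepck1 in the IntS12 line 1.79, not called. Leaving out 1 library gave ranges of 1.64 to 2.03 (Pepck1) and 0.79 to 1.61 (fbp) for copper in parental cells, 1.59 to 1.99 and 1.09 to 1.52 in the IntS12 line, and 1.67 to 2.77 for that fbp difference. Values near 0 changed sign: the IntS12 line with copper against parental cells with copper (-0.37 to 0.1 and -0.37 to 0.02), without copper (-0.25 to 0.13 leaving out 1 library, -0.46 summed with CG45087 and -0.44 unrounded for Pepck1, and -0.68 to 0.14 for fbp), and the IntS12 response difference (-0.31 to 0.16 and -0.29 to 0.53; Pepck1 0.33 summed with CG45087 and 0.32 unrounded). Causes were not tested.

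With the replicate block, in the IntS6 line over parental cells, both with copper, Pepck1 was 2, as a size, and fbp 1.5 (edgeR adjusted p = 0.000545). For copper in parental cells Pepck1 was 1.9 (edgeR adjusted p = 0.00931) and fbp 1.18 (edgeR adjusted p = 0.014). The block changed no call of fbp. In the other comparisons not every r of same-letter libraries was over 0.1. Some fell just short, such as 0.11, 0.09 and 0.09 for the IntS6 line with and without copper.

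Counts of called genes moved over 1.5 times in these cases. Lower genes in the IntS6 line with copper, 119, became 51 with library sizes alone, 210 with no filter, 44 with only the compared groups, and 66 to 195 leaving out 1 library. The 2 genes of the IntS12 line with copper became 5 with DESeq2, 22 with no filter, 1 with only the compared groups, 6 with the block, and 1 to 7 leaving out 1 library. Without copper, the 17 genes of the IntS6 line became 48 with no filter, and the 3 of the IntS12 line 6 with DESeq2, 5 with rRNA genes left out, 32 with no filter, 1 with only the compared groups, 6 with the block and 1 to 3 leaving out 1 library. The 92 higher genes of the IntS6 response difference became 217 with no filter, 59 with only the compared groups, 144 with the block and 42 to 96 leaving out 1 library, and the 1 of the IntS12 difference 8 with no filter. Fitted on the compared groups alone, Pepck1 had no value where the IntS6 line with copper was left out, since the filter removed it. By Spearman rho in place of Pearson r, CG6287 stayed among the 4 genes most like fbp and none of the 4 for Pepck1 did. Among the gene lists, DESeq2 called 2 in place of 4 glycerol 3-phosphate genes and 1 in place of 3 hemocyte markers higher with copper in parental cells. Low counts limit Pepck2 and the groups without copper.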
